A study of Saturnispora dispora and Saturnispora hagleri and Saturnispora mendoncae with 16 samples.

Results

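*Sat. mendoncae* (Smen), a low ECAR yeast, was compared with *Sat. dispora* (Sdis), a rapid ECAR yeast, in log-phase cultures on glucose. ECAR is the extracellular acidification rate, which the study used as a proxy for glycolytic rate. The comparison rests on 8 of the 16 RNA-seq libraries of the series, which are 4 biological replicates of Smen and 4 of Sdis, chosen by the species in their labels. The other 8 libraries come from *Sat. silvae* (Ssil, low ECAR) and *Sat. hagleri* (Shag, rapid ECAR). The study asked whether transcript levels of central carbon metabolism differ between the ECAR classes. Neither strain carried a deletion or an added agent, and both were grown at room temperature in 250 ml baffled flasks holding 50 ml of a synthetic complete medium whose sugar was 2% glucose, from an OD600 of 0.05 and with shaking at 225 rpm. Smen was collected 18 h and Sdis 15 h after inoculation, hours that the study chose to reach mid-log phase in each. Each species is represented by a single strain, so species, ECAR class and hour of collection cannot be told apart in any difference given here.

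Glycolysis breaks glucose down to pyruvate. Hexose transporters (*HXT*) bring the sugar in, hexokinase (*HXK*) and phosphofructokinase (*PFK*) phosphorylate it at the expense of ATP, and aldolase (*FBA*) splits it into triose phosphates that triose phosphate isomerase (*TPI*) interconverts. In lower glycolysis, glyceraldehyde-3-phosphate dehydrogenase (*TDH*), phosphoglycerate mutase (*GPM*) and enolase (*ENO*) carry the trioses towards pyruvate, and alcohol dehydrogenase (*ADH*) acts at the last step of alcoholic fermentation. Yeasts that ferment in the presence of oxygen send much of their glucose through this route, whereas respiratory yeasts burn pyruvate in the mitochondria. Gal4p, the regulator of galactose genes in *Saccharomyces cerevisiae*, is encoded by *GAL4*. The study reports that deleting *GAL4* in Sdis lowered glucose consumption and the expression of a reporter driven by the *TDH* promoter.

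Levels were given in TPM, a count divided by gene length and scaled to the same total in every library, of an orthogroup, which is a set of genes descended from 1 gene of the common ancestor. Counts and gene lengths of all genes of an orthogroup had been summed before TPM was computed. Of the 5029 orthogroups, 4483 had a value in both species, 132 only in Smen, 329 only in Sdis and 85 in neither. The counts in genes were between 10026039 and 13928456 in the Smen libraries and between 9748544 and 12518835 in the Sdis libraries. Reads outside annotated genes made up 2.84% to 3.18% of a Smen library and 2.50% to 3.19% of Sdis replicates 1 to 3, against 9.20% of Sdis replicate 4. No replicates were alike within sampling noise, and a chi-square test of their counts gave 7.03 to 39.99 for each degree of freedom in the 12 pairs within a species. The correlation of log2(TPM + 1) across the shared orthogroups was between 0.987 and 0.997 for replicates of a species and between 0.823 and 0.8292 for a Smen and a Sdis library, a description over genes that are not independent replicates.

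Transcripts of glycolysis and fermentation were lower in Smen at every step that could be tested. In mean TPM as deposited they were between 1.67-fold (*TDH*) and 6.18-fold (*ADH*) higher in Sdis. Of 13 genes of the pathway listed, 8 had a named orthogroup with a level in both species, and all 8 were lower in Smen by limma at an adjusted p under 0.05, against 28.5% of the 4337 orthogroups tested. For 6 of the 8 the difference was at least 2-fold, against 10.9% of all tested. It was so for all 8 after median-ratio rescaling of the libraries, against 17.2% of all, and for 5 without gene length, against 12.6%. The median difference of the 8, Smen minus Sdis, was -1.70 on the log2(TPM + 1) scale, against a median of 0.35 over all orthogroups tested. The replicates of the 2 species did not overlap for any of the 8, while 26.4% of all orthogroups tested were lower in Smen without overlap. The 8 orthogroups together took 3.17%, 3.06%, 2.91% and 3.16% of the TPM of the Smen replicates, against 6.66%, 6.32%, 7.09% and 6.35% of the Sdis replicates. This share was 0.466 times as large in Smen (3.07% ± 0.12 against 6.60% ± 0.36, SD, n = 4 each, exact two-sided permutation p = 0.0286, the smallest that 4 against 4 allows). Since each of the 8 was lower in Smen without overlap, their sum had to be so too, and this p adds no evidence. *TDH* and *ENO* gave the 2 largest parts of the sum in both species. Names were known only from the study's lists of genes with predicted Gal4p-binding sites, so these 8 need not be a neutral sample of the pathway. *PGI*, *PGK*, *PYK* and *PDC* were not analysed here.

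**Figure D1:**
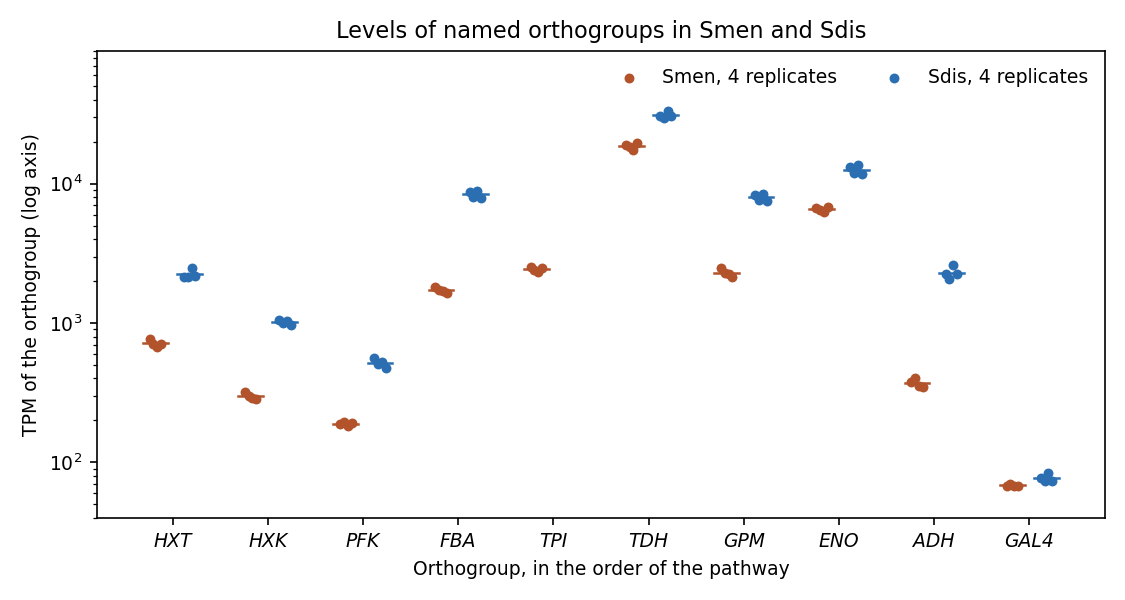
TPM of the 10 named orthogroups (log axis) in the 4 Smen replicates and, to the right of each, the 4 Sdis replicates, with horizontal bars at the means. The Smen points lie below the Sdis points for each of the 9 orthogroups with a value in both species, by 6.18-fold in the means for *ADH* and 1.13-fold for *GAL4*, and *TPI* has points for Smen only.

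At the entry of glucose, the hexose transporter orthogroup *HXT* had 763, 711, 678 and 704 TPM in the Smen replicates, against 2153, 2149.8, 2469 and 2177 TPM in the Sdis replicates. The highest Smen replicate was thus well under the lowest of Sdis, and the Sdis values were close together apart from replicate 3. The difference was -1.64 on the log2(TPM + 1) scale (SE 0.06, limma adjusted p = 4.77e-10), and -0.69 without gene length. Hexokinase (*HXK*), the enzyme that traps glucose in the cell as glucose-6-phosphate, had 322, 302, 290.7 and 287.3 TPM in Smen, against 1051, 999.7, 1040.2 and 964 TPM in Sdis. The 2 ranges were separated by a factor of 2.99 between their nearest replicates. *HXK* differed by -1.75 on the log2(TPM + 1) scale (SE 0.06, limma adjusted p = 1.63e-10).

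Phosphofructokinase, a main point of control of the pathway, is made of 2 kinds of subunit in *S. cerevisiae*. The *PFK* orthogroup held 2 linked genes per species, and which subunit each encodes is not annotated. *PFK* had 188, 196, 183 and 192 TPM in Smen, against 559, 509, 529 and 478 TPM in Sdis, a difference of -1.44 on the log2(TPM + 1) scale (SE 0.06, limma adjusted p = 1.34e-09), and of -0.90 without gene length. All 4 Smen replicates lay within a narrow band (SD 5.34 TPM), and Sdis varied more (SD 34.0 TPM). Aldolase (*FBA*), which splits fructose-1,6-bisphosphate, had 1800.5, 1723, 1695 and 1639.7 TPM in Smen, against 8709, 8057, 8889 and 7955 TPM in Sdis. No Smen replicate came within 4.42-fold of the lowest Sdis replicate. Aldolase differed by -2.29 on the log2(TPM + 1) scale (SE 0.05, limma adjusted p = 1.26e-11), and 1.94% of the orthogroups tested had a lower one.

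*TPI*, the enzyme that makes the 2 triose phosphates interchangeable, had 2534, 2408, 2325 and 2499 TPM in Smen. It had no value in Sdis, where no gene was placed in that orthogroup, and so no difference could be given. Its means in the other species were 2582 TPM in Ssil and 5829 TPM in Shag. Among these 3 species Smen and Ssil were thus close and Shag higher in TPM as deposited. *TPI* entered no fit, so this nearness was not tested after rescaling.

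In lower glycolysis, *TDH* was the most abundant named transcript of both species. It had 19100.2, 18474, 17404 and 19502 TPM in Smen, against 30424, 29822, 33297 and 30481 TPM in Sdis. *TDH* ranked 3rd of all orthogroups in every Smen library and 1st in every Sdis library. The difference was -0.74 on the log2(TPM + 1) scale (SE 0.05, limma adjusted p = 9.09e-08), the smallest of the 8 glycolysis and fermentation orthogroups in TPM as deposited. *TDH* was at -0.81 and *HXT* at -0.69 without gene length, and *TDH* at -1.014 and *ENO* at -0.88 with quantile normalization, so which of them was smallest depended on the setting. Phosphoglycerate mutase (*GPM*) had 2489, 2298, 2231 and 2144 TPM in Smen, against 8279, 7652, 8402 and 7557 TPM in Sdis. *GPM* ranked between 96th and 113th in the Smen libraries and between 8th and 17th in the Sdis libraries, and differed by -1.80 on the log2(TPM + 1) scale (SE 0.06, limma adjusted p = 1.83e-10). Enolase (*ENO*), which forms phosphoenolpyruvate, had 6691, 6491, 6243 and 6753 TPM in Smen, against 13213, 11882, 13628 and 11680.1 TPM in Sdis. The ranges were apart, with a difference of -0.94 on the log2(TPM + 1) scale (SE 0.06, limma adjusted p = 3.18e-08). Over the steps that were tested, the median difference was -1.75 for the 3 of upper glycolysis (*HXK*, *PFK*, *FBA*) and -0.94 for the 3 of lower glycolysis (*TDH*, *GPM*, *ENO*), given as a description because the groups hold so few genes.

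Alcohol dehydrogenase, which in its fermentative form reduces acetaldehyde to ethanol, showed the largest difference of the named genes. *ADH* had 380.3, 404, 352 and 349 TPM in Smen, against 2256, 2087, 2600.5 and 2237 TPM in Sdis. The lowest Sdis replicate was 5.16 times the highest Smen replicate. The difference was -2.62 on the log2(TPM + 1) scale (SE 0.07, limma adjusted p = 6.17e-11), and 1.34% of the orthogroups tested had a lower one. Which forms of the enzyme the orthogroup holds is not annotated, and forms that oxidize ethanol are known from *S. cerevisiae*.

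*GAL4* showed the smallest difference of the named genes. It had 68.0, 69.96, 67.7 and 67.5 TPM in Smen, against 77.6, 73.3, 83.5 and 73.6 TPM in Sdis. The replicates did not overlap, but the nearest were only 1.048-fold apart. Its difference of -0.17 on the log2(TPM + 1) scale (SE 0.07, limma adjusted p = 0.0341) passed the threshold narrowly. It no longer did so when gene length was left out (-0.08, adjusted p = 0.205) or in a fit over all 16 libraries (adjusted p = 0.0892). The call was also lost without any 1 of Smen replicates 1, 3 and 4 and Sdis replicates 1 and 3 (adjusted p between 0.0557 and 0.0914). Scaling between libraries moved *GAL4* the other way, to a larger difference that was called. By limma it was at -0.52 after median-ratio rescaling (adjusted p = 8.56e-05) and at -0.49 after quantile normalization (adjusted p = 5.02e-05). DESeq2 gave -0.53 (adjusted p = 7.44e-09) and edgeR -0.51 (adjusted p = 1.55e-05). The size and the call of *GAL4* thus depended on the setting.

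Both the scale of TPM and the summed gene lengths moved these values. A median-ratio rescaling of the libraries made the 8 differences of glycolysis and fermentation larger, with a median of -2.05 and all 8 called lower, against 41.3% of all orthogroups tested, and *GAL4* became -0.52. Without gene length the median of the 8 was -1.43, all 8 were called lower, against 31.1% of all, and the differences of *HXT* and *PFK* shrank to -0.69 and -0.90. Both stayed called in every alternative run, with limma, edgeR or DESeq2 adjusted p of at most 2.18e-07 for *HXT* and 3.59e-08 for *PFK*. The lengths implied by the TPM values, which are coding lengths, were unequal for these 2 and for *GAL4*. The *GAL4* gene had 3183 bases in Smen and 2838 bases in Sdis. The *HXT* genes of Smen summed to 3231 bases and the single *HXT* gene of Sdis to 1590 bases. The *PFK* genes summed to 8943 bases in Smen and 5811 bases in Sdis, although 2 genes with counts were linked in each, and a gene without any count cannot be linked. The lengths of *HXK*, *FBA*, *TDH*, *GPM* and *ENO*, each with 1 gene a species, differed by at most 12 bases between the species.

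**Figure D2:**
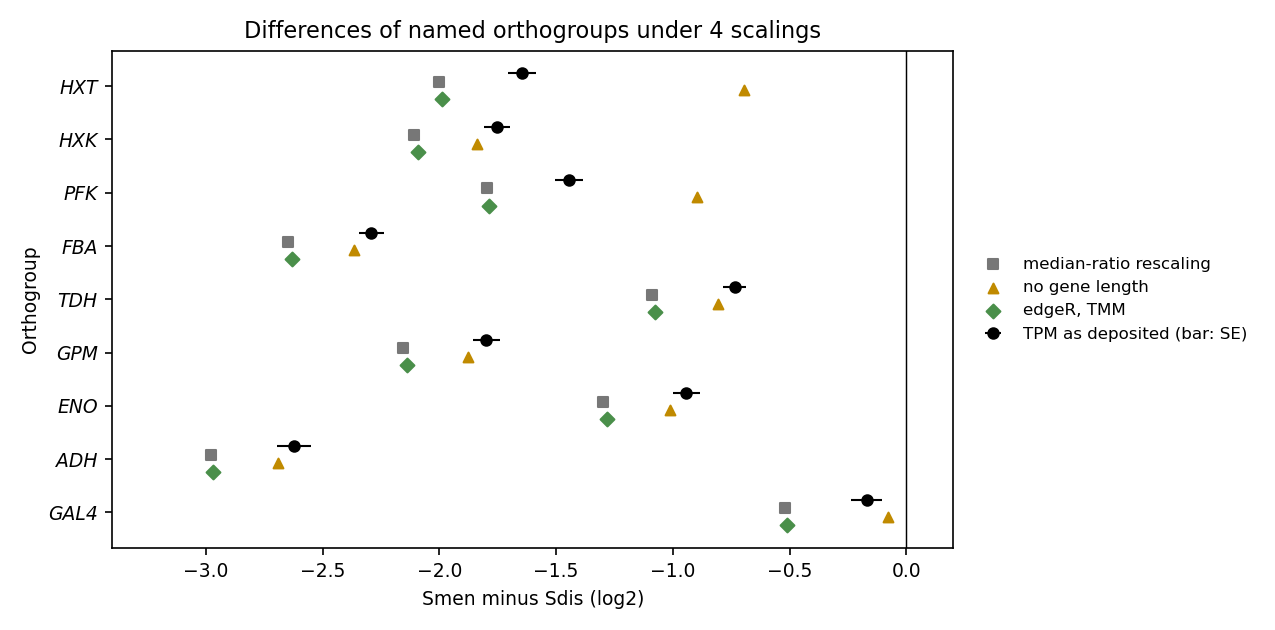
Difference between Smen and Sdis (log2, Smen minus Sdis) of the 9 named orthogroups with a value in both species, for TPM as deposited (black, bars are SE), after median-ratio rescaling, without gene length and by edgeR with TMM scaling. All points lie below 0, and the points without gene length lie nearest to 0 for *HXT* (-0.69), *PFK* (-0.90) and *GAL4* (-0.08).

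Single genes inside these orthogroups were set apart by their counts, as CPM (the count of a gene scaled to a common total of counts in genes), which do not correct for gene length. For *HXT*, Smen held 1 expressed gene, with 2611, 2407, 2314 and 2356 CPM, and 1 gene near silence, with 1 to 11 counts per library and at most 0.79 CPM. The single *HXT* gene of Sdis had 3768, 3780.2, 4239 and 3897 CPM. The expressed Smen gene was thus at 0.618 times the level of the Sdis gene (exact two-sided permutation p = 0.0286) and their TPM, in which the length of the near-silent gene also counts, were 3.13-fold higher in Sdis. For *PFK*, the 2 genes of each species were nearly even. They averaged 899 and 883 CPM in Smen, against 1771 and 1554 CPM in Sdis, so both were lower in Smen.

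For *ADH*, each species had 3 linked genes, and the shares among them differed. The highest gene took 72.0% to 75.2% of the orthogroup's counts in Smen, against 98.6% to 98.98% in Sdis. The second took 16.6% to 19.5% in Smen and 1.012% to 1.39% in Sdis, and the third 7.76% to 9.17% in Smen and 0.00785% to 0.0159% in Sdis. The highest *ADH* gene had 973, 1048, 882 and 858 CPM in Smen, against 8024, 7478, 9102 and 8164 CPM in Sdis. It was at 0.115 times the Sdis level in Smen, with no overlap (exact two-sided permutation p = 0.0286). Whether the highest genes of the 2 species are each other's closest relatives within the orthogroup was not tested. Exact permutation tests were run on 24 quantities per library, of which 21, all those printed with a p among them, gave 0.0286 (0.0327 adjusted over the 24). The other 3 were the share of reads outside annotated genes (0.857), the share of all reads not counted to a gene (1.0) and the CPM of *GAL4* (0.0571).

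**Figure D3:**
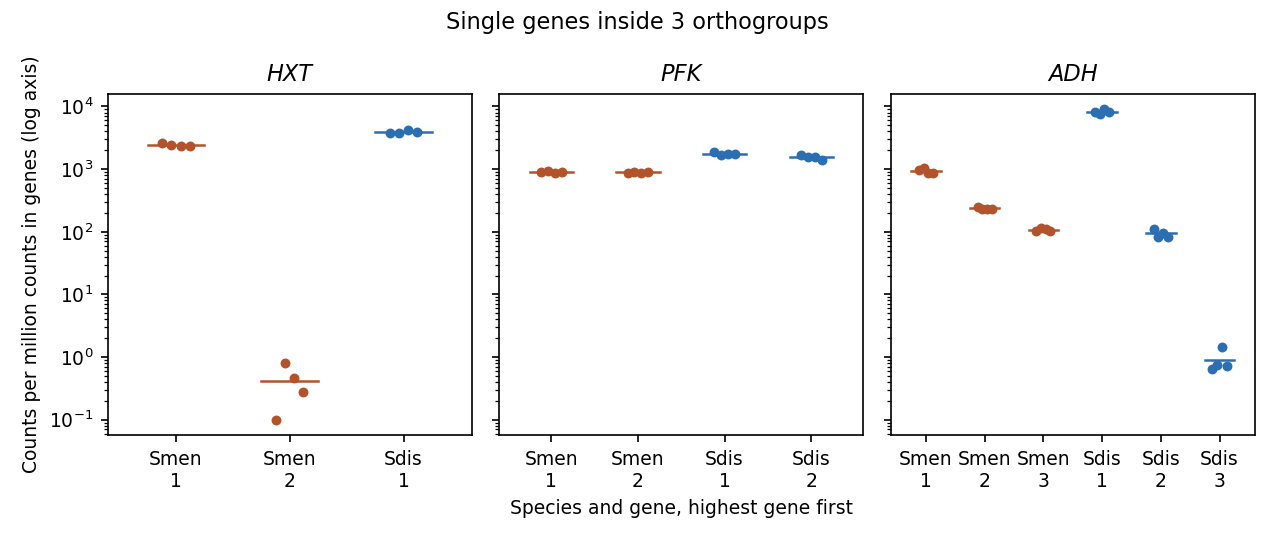
CPM of each linked gene (log axis) of *HXT*, *PFK* and *ADH* in the 4 replicates of Smen and, to the right, of Sdis, numbered from the highest gene of each species, with bars at the means. The second *HXT* gene of Smen lies under 1 CPM beside a first gene of 2422 CPM, the *PFK* genes lie in even pairs, and the first *ADH* gene of Sdis (8192 CPM) stands far above its other 2.

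Among orthogroups of more than 1 linked gene and enough counts, the highest gene took a median of 77.9% of the counts over 132 orthogroups in Smen and 71.6% over 102 in Sdis. It took over 95% in 21 of these in Smen and 14 in Sdis. The *HXT* orthogroup of Smen and the *ADH* orthogroup of Sdis belong to these few.

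Across the transcriptome, most orthogroups differed between Smen and Sdis. Of the 4337 tested, 2356 were higher and 1234 lower in Smen by limma at an adjusted p under 0.05 (82.8% called, 54.3% higher), and 747 were not called. At a difference of at least 2-fold, 1065 (24.6%) were higher and 474 (10.9%) lower in TPM as deposited, whereas after median-ratio rescaling 659 were higher and 746 (17.2%) lower. At 4-fold as deposited they were 262 and 116, and at 8-fold 87 and 40. The excess of higher calls depended on the scale without a fold limit too, since after rescaling 1796 (41.4%) were higher and 1792 (41.3%) lower. The library factors of that rescaling were 1.102 to 1.18 in Smen and 0.826 to 0.975 in Sdis. In TPM as deposited, the median orthogroup tested had 44.3, 46.7, 45.0 and 43.4 TPM in the Smen replicates, against 37.9, 36.9, 32.9 and 32.7 TPM in the Sdis replicates. Directions of single orthogroups are therefore best read against the median difference of 0.35, and the 8 glycolysis and fermentation orthogroups were below both 0 and that median. Sdis varied more between replicates than Smen, with a median coefficient of variation of 10.9% against 6.92% in Smen.

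**Figure D4:**
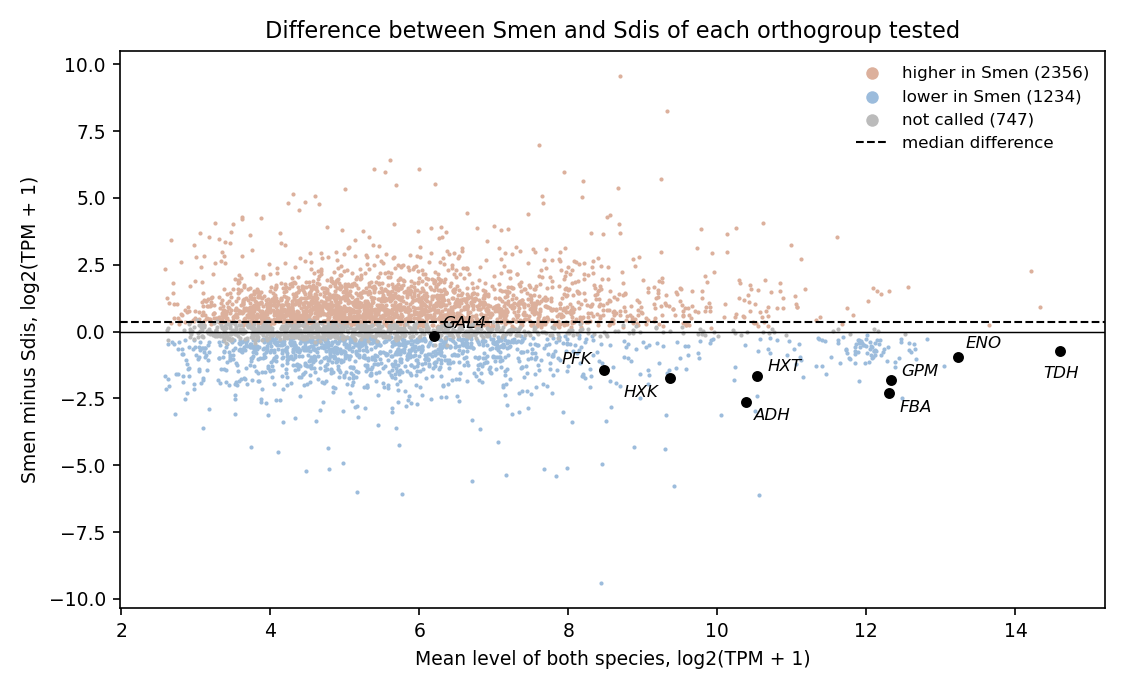
Difference between Smen and Sdis (log2(TPM + 1), Smen minus Sdis) of the 4337 orthogroups tested, against the mean level of both species (log2(TPM + 1)), colored by call, with 9 named orthogroups in black and the median difference of 0.35 as a dashed line. The named orthogroups of glycolysis and fermentation lie below 0 and at the right, among highly expressed orthogroups, and *GAL4* lies close to 0.

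The most abundant orthogroups ran against the general direction. Of the 177 with a mean of 1000 TPM or more over the 8 libraries, 61 were higher and 100 (56.5%) lower in Smen, with a median difference of -0.30. Of the 967 between 100 and 1000 TPM, 590 were higher and 260 lower, with a median of 0.44. The median difference of the most abundant class was 0.65 below that of all orthogroups tested, and 0.66 below it after rescaling. Of the 8 orthogroups of glycolysis and fermentation, 6 fall in the most abundant class, where 56.5% were lower in Smen, a higher background for them than the 28.5% of all tested. After rescaling, 48 of the 177 in that class were higher and 116 lower in Smen.

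**Figure D5:**
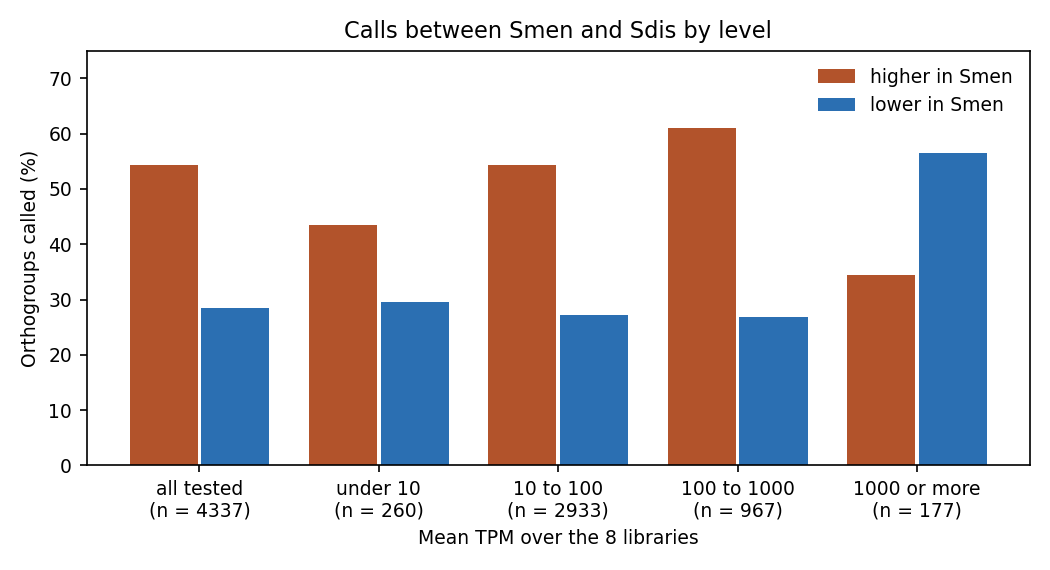
Percent of orthogroups called higher and lower in Smen than in Sdis, for all tested and in classes of mean TPM over the 8 libraries (n under each pair of bars). Higher calls outnumber lower ones in each class under 1000 TPM, and lower calls (56.5%) outnumber higher ones (34.5%) at 1000 TPM or more.

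The 10 most abundant orthogroups were shared only in part. Of the 10 highest of each species by mean TPM, 4 were the same, 40% of each list, and *TDH* and *ENO* were among them. Of the 100 highest, 77 were the same. The highest orthogroup of Smen, which carries no name here, had a mean of 31308 TPM in Smen and 6539.9 TPM in Sdis, where it ranked 20th. Orthogroups ranked 5th to 9th in Smen ranked 94th to 112th in Sdis. *FBA* ranked 139th in the means of Smen and 8th in Sdis, and *GPM* 108th in Smen and 9th in Sdis. The 10 highest together took 13.2%, 13.3%, 13.2% and 13.9% of TPM in Smen, against 12.4%, 12.2%, 13.1% and 12.3% in Sdis (exact two-sided permutation p = 0.0286). This order turned with the measure. The 50 highest took 30.4% ± 0.23 in Smen and 36.4% ± 0.43 in Sdis, and the 10 highest by counts took 12.8% ± 0.42 of counts in Smen and 15.96% ± 0.72 in Sdis (SD, n = 4 each).

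Grouped by gene number, coding length and presence, the orthogroups are given as a description. The 4175 with 1 gene in each species had a median difference of 0.35, like all tested. The 74 with more linked genes in Smen had a median of 0.16 with 36 higher (48.6%) and 27 lower (36.5%), and the 33 with more linked genes in Sdis had 0.36 with 20 higher (60.6%) and 8 lower (24.2%), against 54.3% higher and 28.5% lower of all tested. Without gene length these medians were 0.62 and -0.22, and after rescaling -0.17 (28 higher, 35 lower) and 0.02 (15 higher, 11 lower), against 41.4% higher and 41.3% lower of all. Of the 528 whose coding length was equal in both species, 254 were higher (48.1%) and 202 lower (38.3%), with a median of 0.15, whereas after rescaling 186 were higher and 261 lower, with a median of -0.20. The 184 whose coding length was over 1.25 times as long in Sdis had a median of 0.69, with 0.02 without gene length and 0.34 after rescaling. The 127 that Shag also holds but Ssil does not had a median of 0.65 with 84 higher (66.1%) and 33 lower (26.0%), against 0.34 for the 4179 held by all 4 species. After rescaling the 127 had a median of 0.32 with 70 higher and 42 lower.

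The largest gaps between replicates of the 2 species belonged to orthogroups whose names are not given by the files. OG0003529 had 1399, 1135, 1326 and 1236 TPM in Smen, against 3.10, 2.99, 2.70 and 4.01 TPM in Sdis, with 1 gene of 1638 bases in each. Its difference was 8.25 on the log2(TPM + 1) scale (SE 0.10, limma adjusted p = 1.48e-13), and its means were 163 TPM in Ssil and 27.8 TPM in Shag. OG0001126 had 402, 397, 380.4 and 359.9 TPM in Smen, against 2.91, 1.95, 1.58 and 1.83 TPM in Sdis. It differed by 6.99 on the same scale (SE 0.12, limma adjusted p = 1.91e-12). In the other direction, OG0004381 had 41.7, 45.9, 43.2 and 37.3 TPM in Smen, against 3066, 2949, 2953 and 2881 TPM in Sdis, and its gene was 933 bases long in Smen and 1593 bases in Sdis. It differed by -6.11 (SE 0.07, limma adjusted p = 5.56e-14), and it had 21.3 TPM in Shag and no value in Ssil. OG0002337, a short gene of 204 bases in Smen and 171 bases in Sdis, had 26.8, 23.3, 26.5 and 19.2 TPM in Smen, against 1277, 1262, 1374 and 1464 TPM in Sdis. It differed by -5.76 (SE 0.10, limma adjusted p = 2.19e-12), and its means of 1211 TPM in Ssil and 3121 TPM in Shag were on the side of Sdis. Orthogroups under 1 TPM in every library of one species and at 20 TPM or more in every library of the other were few, with 9 silent in Sdis and 7 silent in Smen.

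Orthogroups with a value in only 1 of the 2 species made up a small part of expression. The 132 held only by Smen took 1.29%, 1.31%, 1.28% and 1.28% of TPM in Smen, against 2.98%, 2.97%, 2.88% and 2.98% for the 329 held only by Sdis in Sdis. The share was 0.438 times as large in Smen. A different set of orthogroups is summed in each species, so the exact two-sided permutation test of it (p = 0.0286) cannot bear on expression. These orthogroups were expressed at lower levels than those held by both, with a median of 16.8 TPM against 43.0 TPM for shared ones in Smen, and 24.2 TPM against 33.3 TPM in Sdis. They were also shorter, with a median coding length of 816 bases against 1254 bases for shared ones in Smen, and 730.5 bases against 1272 bases in Sdis. Under 1 TPM were 16 of the 132 in Smen (12.1%, against 1.25% of shared ones) and 32 of the 329 in Sdis (9.73%, against 1.65% of shared ones). A missing value says that no gene of the species was placed in the orthogroup, and a gene missed by annotation or placed elsewhere would look alike.

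Many of these orthogroups were also held by Shag or Ssil. Of the 132 of Smen, 35 were also held by both Shag and Ssil, 59 by Ssil only, 8 by Shag only and 30 by neither. Of the 329 of Sdis, 152 were also held by both Shag and Ssil, 145 by Shag only, 11 by Ssil only and 21 by neither. The 30 found in Smen alone summed to 0.0663% of its TPM, and the 21 found in Sdis alone to 0.0478% of its TPM. The highest orthogroup held only by Smen of the pair was OG0004765, with 2459, 2351, 2539 and 2672 TPM, which ranked between 86th and 102nd in the libraries of Smen. *TPI* came after 2 of them. The highest held only by Sdis was OG0004472, with 4704, 4949, 5133 and 5274 TPM, which ranked between 42nd and 51st. The sum was concentrated in few orthogroups, as the 5 highest gave 66.1% of it in Smen and 43.1% in Sdis.

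Of the counts in genes, 2.04% to 2.24% in Smen, against 0.222% to 0.226% in Sdis, lay in genes that were not linked to an orthogroup. Their part in the differences was not tested.

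Ssil, the other low ECAR species, differed from Smen at several of the named steps. Ssil replicate 4 had 6196684 counts in genes, against 10920418 to 11817386 in replicates 1 to 3. Reads not counted to a gene made up 19.0% of Ssil replicate 4 and 11.1% of replicate 1, against 5.37% and 5.46% in replicates 2 and 3. Genes not linked to an orthogroup held 8.16% to 8.56% of the counts in genes of Ssil. The part of these in the contrast was not tested. In a fit over all 16 libraries, Smen minus Ssil was -2.66 for *ADH* (SE 0.10, adjusted p = 3.72e-13), -1.54 for *PFK* (SE 0.09, adjusted p = 1.50e-10), -1.31 for *FBA* (SE 0.11, adjusted p = 5.00e-09) and -1.29 for *GAL4* (SE 0.09, adjusted p = 5.83e-10), all by limma and lower in Smen, as were 61.6% of the 4203 orthogroups tested in that contrast (83.9% called, 22.4% higher). After rescaling that contrast had 1736 higher and 1753 lower. *HXT* and *HXK* ran the other way, at 1.72 (SE 0.07, limma adjusted p = 1.61e-12) and 0.77 (SE 0.09, limma adjusted p = 4.14e-07). These 6 kept their direction and call after rescaling. *ADH* (-1.97), *PFK* (-0.86), *FBA* (-0.62) and *GAL4* (-0.61) came nearer to 0, whereas *HXT* (2.41) and *HXK* (1.45) moved away from it. The contrast is at the same time the test of whether Smen and Ssil differ from Sdis by unequal amounts, so in TPM they did for these 6. It was not run without gene length, which moved *HXT* and *PFK* between Smen and Sdis, so the part of summed lengths in it was not tested. In TPM as deposited, *ADH* averaged 371 TPM in Smen, 2350.3 TPM in Ssil and 2295 TPM in Sdis, and *PFK* 189.9 TPM in Smen, 556 TPM in Ssil and 519 TPM in Sdis. The nearness of Ssil to Sdis in these 2 depended on the scale, since after rescaling Ssil minus Sdis was -1.02 for *ADH* (limma adjusted p = 1.79e-07) and -0.96 for *PFK* (limma adjusted p = 7.14e-09). *HXT* averaged 714 TPM in Smen, 216 TPM in Ssil and 2237 TPM in Sdis, and *HXK* 300.4 TPM in Smen, 177 TPM in Ssil and 1014 TPM in Sdis. For *GPM* (-0.06, SE 0.13, limma adjusted p = 0.656) and *ENO* (0.03, SE 0.12, limma adjusted p = 0.812) no difference between Smen and Ssil was called, and *TDH* was lower in Smen by 0.43 (-0.43, SE 0.11, limma adjusted p = 0.00137). After rescaling, *GPM* was at 0.63 (limma adjusted p = 1.09e-04), *ENO* at 0.72 (limma adjusted p = 6.80e-05) and *TDH* at 0.26 (limma adjusted p = 0.0707), so the direction of *GPM* and *TDH* and the calls of all 3 depended on the scale.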

How the data were processed

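RNA-seq was made from poly(A) RNA of 4 cultures per species with a directional kit and paired reads of 150 bp. Per the submitters' processing notes, the tools were Trimmomatic 0.30, HISAT2 2.1.0 and HTSeq 2.0.3. The gene values deposited by the authors are expected counts, with fractions where a read pair could belong to more than 1 gene, and the strand setting of HTSeq is not given in the sources used here. The authors computed TPM with edgeR from the summed counts and summed lengths of the genes that OrthoFinder placed together. Each species was mapped to its own genome.

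Orthogroups with a value in all 8 libraries and a mean of at least 5 TPM were tested on log2(TPM + 1) with limma 3.58.1 (R 4.3.3, intensity trend, species only), with Benjamini-Hochberg adjustment over the 4337 tested and a threshold of 0.05. Fold changes on this scale are understated for low values. The replicates are cultures of 1 strain per species, so p-values measure the spread between cultures. Ssil and Shag entered only the fit over 16 libraries, which was also run without Shag replicate 3. Single values were compared with exact permutation tests (SciPy 1.17.1).

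Genes were tied to orthogroups where their counts, or the sum of up to 4 genes, had the same proportions over the 4 libraries to within 1e-08, which linked 4598 of 4615 orthogroups in Smen and 4780 of 4812 in Sdis. Reads without a gene made up 4.10% to 10.9% of a Smen or Sdis library and were left out. Counts of genes that share reads with near-identical copies are uncertain. Names come from the study's own lists of gene IDs. All 35 IDs were linked, in 10 orthogroups, and Smen genes of *HXT*, *HXK*, *PFK*, *TPI* and *ADH* have their name through the orthogroup alone. No other names, and so no list of respiratory or TCA cycle genes, were used here. Orthogroups named by ID were the 2 called ones with the widest gap between replicates in each direction (both means at least 1 TPM) and the highest held by only 1 species. The members and lists were chosen with earlier results of these data known.

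Alternatives were pseudocounts of 0.1 and 5 TPM, no filter or 20 TPM, a value in all 4 species, median-ratio rescaling, quantile normalization, no gene length, 1 gene per species, all 16 libraries, no trend, a replicate block, leaving out each library, a 2-fold threshold, edgeR 4.0.16 and DESeq2 1.42.0 on the rounded counts with length as an offset, shares of counts, and 50 in place of 10 orthogroups. The fitting and linking steps were tested on simulated data. The simulated fit had the same gene lengths in both groups and as many raised as lowered genes. It therefore cannot show how the scale of TPM or unequal lengths act on these results.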

Additional observations from a re-analysis of the deposited data

Results flagged for a closer look

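Of 79 groups of 4 replicates, 7 held a replicate that stood apart by Dixon's test, where chance flags about 1 in 20 groups. In Sdis replicate 4, reads outside annotated genes made up 9.20%, against 2.50% to 3.19% in the other 3 replicates, and all reads without a gene 10.9%, against 4.10% to 4.91%. Without that library 2267 orthogroups were higher and 1245 lower in Smen. *HXT* was at 2469 TPM in Sdis replicate 3, against 2149.8 to 2177 TPM in the others. In the same replicate, orthogroups held only by Sdis of the pair took 2.88% of TPM and 2.03% of counts, against 2.97% to 2.98% of TPM and 2.099% to 2.103% of counts in the others. In Smen replicate 4, the 10 highest orthogroups took 13.9% of TPM and the 50 highest 30.8%, against 13.2% to 13.3% and 30.3% to 30.4% in the others. The shares of TPM and of counts are measures of the same libraries and are not independent flags.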

How the results depend on the processing

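The number of orthogroups higher in Smen stayed within 1.5 times 2356 and the number lower within 1.5 times 1234 in every alternative except the 2-fold threshold, which left 1065 higher and 474 lower (659 and 746 after rescaling, 664 and 700 with quantile normalization, 688 and 771 with edgeR, 678 and 784 with DESeq2). The split still turned with the scale, from 65.6% of calls higher as deposited to 50.1% after median-ratio rescaling (1796 and 1792), 51.1% with quantile normalization (1830 and 1754), 50.6% with edgeR (1808 and 1763) and 49.9% with DESeq2 (1789 and 1799). The median difference of 0.35 was 0.0038 after rescaling, 0.027 with quantile normalization, 0.0196 with edgeR and 0.0018 with DESeq2. Leaving out 1 library gave 2260 to 2430 higher, 1181 to 1281 lower and a median difference of 0.32 to 0.39. All 8 orthogroups of glycolysis and fermentation were called lower in Smen in every alternative that could be run except the 2-fold threshold, which *TDH* (-0.74) and *ENO* (-0.94) miss, and the setting with 1 gene in each species leaves out *HXT*, *PFK* and *ADH*. *GAL4* was not called without gene length (-0.077), in the fit of 16 libraries (-0.17) or with the block (-0.17), and leaving out 1 library gave -0.19 to -0.13. Without Shag replicate 3 the 16-library fit called *GAL4* (limma adjusted p = 0.0316). Its difference was larger, and called, after median-ratio rescaling (-0.52), with quantile normalization (-0.49), with edgeR (-0.51) and with DESeq2 (-0.53).

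Replicate numbers do not pair the samples: the correlation of deviations between same-numbered samples was between -0.03 and 0.30, and 1 of 4 Smen samples correlated best with its own number. A fit with the replicate number as a block called 2369 higher and 1243 lower, and of the named orthogroups it changed the call of *GAL4* only (-0.17, adjusted p = 0.0627).

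The difference in the share of the 10 highest orthogroups, 0.90 percentage points, was reversed for shares of counts (-3.17) and for the 50 highest (-6.00). Leaving out 1 library gave 0.73 to 1.08 points for the 10 highest, -3.63 to -3.37 for the orthogroups of glycolysis and fermentation and -1.68 to -1.65 for those held by 1 species, and 3 against 4 libraries cannot give an exact p under 0.0571. Between Smen and Ssil, rescaling moved *ENO* to 0.72 and reversed *GPM* (0.63) and *TDH* (0.26). The cause of these changes was not tested. Depth limits the near-silent *HXT* gene of Smen, which rests on 1 to 11 counts a library, and in linking, the 9 genes of Smen and 23 of Sdis without any count.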
